A study of Rattus norvegicus with 4 samples.

Results

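Fn1 (fibronectin), Spp1 (osteopontin), Vcan (versican) and Cd44 were examined in 2 rat prostate tumour cell lines, G and MAT-LyLu. The 4 genes were chosen by the difference in signal between the lines: earlier results of this same comparison had shown the 3 matrix ligands, and Cd44 as a receptor they share, higher in MAT-LyLu while collagen genes were lower. All 11 probe sets that the platform annotation gives to the 4 symbols were followed, of 8740 rat probe sets on the array: 5 for Fn1, 4 for Cd44, and 1 each for Spp1 and Vcan. That difference is therefore described for them without a test.

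Both lines are sublines of the Dunning R3327 rat prostatic tumour. MAT-LyLu is described by the submitters as highly metastatic and G, their control, as non-metastatic. No treatment, time or genetic change is given for either line. Total RNA was hybridised as biotin-labelled cRNA to Affymetrix arrays, with 2 arrays per line. The arrays are called duplicates, with no word on separate cultures, so the spread between them may be technical and a difference stands for these 2 lines only. Array medians lay between 2998 and 3156 signal units, where a signal is the summary of all probes of a probe set. The background level of an array was taken as the 95th percentile of its 23 control probe sets for bacterial, yeast and mouse RNA, and ran from 1891 to 2311. Of 8 prostate epithelial markers on the array, Krt14, Krt19, Epcam, Pbsn and Msmb were under background on all 4 arrays. Krt8, a keratin of simple epithelia, was 22.6-fold higher in MAT-LyLu, with 1 of the G arrays above background. Krt18 overlapped between the lines (2015 and 1452 in G, 1578 and 1871 in MAT-LyLu), with only 1 G array above background. Krt5, above background on all 4 arrays, overlapped too (3335 and 3055 in G, 3148 and 3253 in MAT-LyLu). Of 8 fibroblast and smooth muscle markers, 6 had both G arrays above both MAT-LyLu arrays and 1 the reverse. The summed signal of the 8 was 89723 and 105302 in G and 77575 and 79348 in MAT-LyLu. Tagln, an actin-binding protein of smooth muscle, was 1.78-fold lower. Acta2, Pdgfrb and Vim were 1.13-fold, 1.23-fold and 1.20-fold lower, and Pdgfra at least 1.14-fold lower, with MAT-LyLu under background. Cnn1, also of the 6, was under background on all 4 arrays. Des was 1.02-fold higher in MAT-LyLu, and Myh11 overlapped. The 4 endothelial markers on the array summed to 11145 and 9696 in G and 10451 and 11058 in MAT-LyLu. The part of these markers' differences in the results for the 4 genes was not tested.

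Fibronectin is a secreted glycoprotein that cells assemble into fibrils through integrins, which recognise an arginine-glycine-aspartate sequence in it. Osteopontin is a small secreted phosphoprotein with the same integrin-binding sequence, and it has been described as a ligand of CD44. Versican is a large chondroitin sulfate proteoglycan that binds hyaluronan, the glycosaminoglycan for which CD44 is the main cell surface receptor. CD44 spans the membrane, is made in many splice forms, and is joined to the actin cytoskeleton by ezrin, radixin and moesin.

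The bases upstream of the annotated transcription starts of Spp1, Vcan and Cd44 are shown because these are the members for which a RefSeq window (build GRCr8) was matched, 3 of 4, and whose transcripts were higher in MAT-LyLu. Each is the 250 bases before the start, on the minus strand, written 5′ to 3′, and capitals mark motif matches. The windows lie at chr14:5619805-5620054 for Spp1, chr2:22595956-22596205 for the outer of 2 Vcan starts, and chr3:109699425-109699674 for Cd44.
Spp1: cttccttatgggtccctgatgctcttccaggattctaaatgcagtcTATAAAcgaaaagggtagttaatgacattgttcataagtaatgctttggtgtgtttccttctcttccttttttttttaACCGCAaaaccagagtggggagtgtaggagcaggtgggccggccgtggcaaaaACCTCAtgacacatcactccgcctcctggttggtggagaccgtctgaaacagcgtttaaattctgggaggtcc
Vcan: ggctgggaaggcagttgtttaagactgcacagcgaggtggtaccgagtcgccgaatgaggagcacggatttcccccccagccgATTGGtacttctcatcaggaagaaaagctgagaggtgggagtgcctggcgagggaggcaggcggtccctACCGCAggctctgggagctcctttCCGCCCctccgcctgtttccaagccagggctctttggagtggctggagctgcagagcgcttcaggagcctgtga
Cd44: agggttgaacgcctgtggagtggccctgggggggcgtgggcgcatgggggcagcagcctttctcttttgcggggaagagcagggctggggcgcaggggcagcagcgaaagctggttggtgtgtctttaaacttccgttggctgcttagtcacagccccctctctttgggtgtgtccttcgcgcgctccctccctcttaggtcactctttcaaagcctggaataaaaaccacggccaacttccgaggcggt

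Motifs were searched on both strands as plain letters: TGANTCA for AP-1, GGGCGG for the GC box, CCAAT for the CCAAT box, TATAAA for the TATA box and ACCNCA for the Runx core. N is any base, so ACCNCA is looser than the Runx core itself, ACCACA or ACCGCA. The Spp1 window held 1 TATA box match, which begins 204 bases before the annotated start, and 2 matches to the loose ACCNCA letters. The match that begins 126 bases before the start reads ACCGCA. The match that begins 73 bases before it reads ACCTCA, which is not a Runx core. The Vcan window held 1 Runx core, 1 CCAAT box and 1 GC box match, the latter 2 on the opposite strand. The Cd44 window held none of the 5 letter patterns, which says only that these letters were not in this window. Among 33469 windows of the same length, the ACCNCA letters were found in 41.0%, a share that holds for this loose pattern. The CCAAT box was found in 34.0%, the GC box in 30.5%, the TATA box in 12.9% and the AP-1 letters in 6.34%. The 3 windows shared no motif of the 5. G and C made up 46.8% of the Spp1 window, 61.6% of the Vcan window and 60.8% of the Cd44 window, against a median of 51.2% over all windows.

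Of the 11 probe sets, 8 had both MAT-LyLu arrays above both G arrays, 3 overlapped and 0 had both G arrays above. Among all rat probe sets 27.9% had both MAT-LyLu arrays above both G arrays and 36.3% the reverse. These 8 probe sets covered all 4 genes. They were also the 8 that passed the filter on low signal, in which the 25% of probe sets with the lowest mean were left out. The 3 that did not pass were all Cd44 probe sets, and they were the 3 whose lines overlapped.

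**Figure D1:**
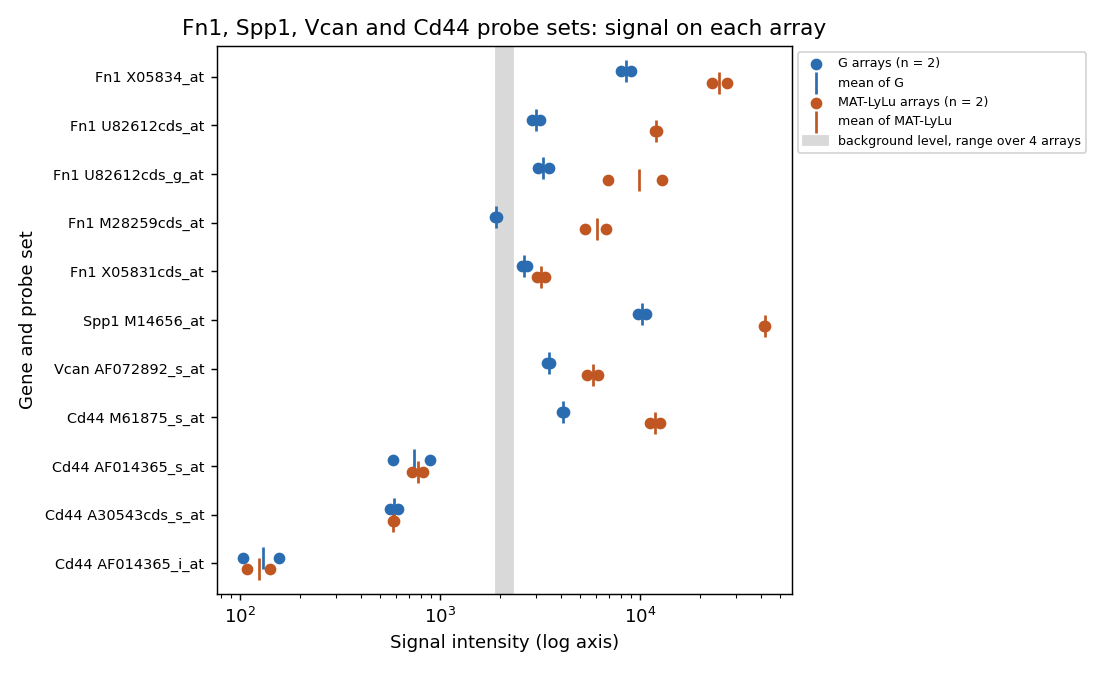
Signal intensity (log axis) of each Fn1, Spp1, Vcan and Cd44 probe set on the 2 G arrays (blue points) and the 2 MAT-LyLu arrays (orange points), with line means as bars and the range of the background level, 1891 to 2311, in grey. Spp1 averaged 10201 units in G and 41987 in MAT-LyLu, and 3 Cd44 probe sets lay left of the background band in both lines.

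Spp1 had the largest difference in log2 signal of the members. Its probe set, M14656_at, read 10699 and 9703 on the G arrays and 42242 and 41732 on the MAT-LyLu arrays. Both MAT-LyLu values were far above both G values, and the MAT-LyLu arrays differed from each other by less than the G arrays did. The mean was 10201 ± 705 (SD, n = 2) in G and 41987 ± 361 (SD, n = 2) in MAT-LyLu, a 4.12-fold difference, and single MAT-LyLu arrays were 3.90-fold to 4.35-fold above single G arrays. The log2 difference of 2.04 had rank 73 among the rises of 6555 tested probe sets. In MAT-LyLu the Spp1 signal stood at 91.0% and 91.6% of the highest signal on the array, against 22.7% and 15.2% in G; whether the upper end of the scale compressed the MAT-LyLu values was not tested.

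Osteopontin is also a product of macrophages. Of 12 macrophage and leukocyte markers, 8 were on the array. Itgam and Lyz2, both of myeloid cells, were under background on all 4 arrays, and the other 6 were above background in both lines. The summed signal of the 8 was 32941 and 31515 on the G arrays and 32016 and 34760 on the MAT-LyLu arrays. The sums of the lines overlapped. Of the 8, 2 had both MAT-LyLu arrays above both G arrays, Cd14 (2289 and 2302 against 2573 and 2683) and Csf1r (5247 and 5111 against 5642 and 5819), both of monocytes, at 1.14-fold and 1.11-fold. In 3 both G arrays were above: Itgam and Lyz2, whose values lay under background, and Cd4 (3341 and 3644 against 3064 and 3270). All 4 samples are titled as cell lines, and a signal above background does not by itself show that such cells were present. The part of such cells in the Spp1 result was not tested. In bulk RNA, more cells of a type and more RNA per cell cannot be told apart.

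Fibronectin was read by 5 probe sets, and 4 of them differed by 2.92-fold or more between the lines. The brightest, X05834_at, read 9019 and 7980 in G and 27005 and 22718 in MAT-LyLu, which is 2.93-fold in the means (8499 ± 734 and 24861 ± 3031, SD, n = 2). U82612cds_at read 3142 and 2887 in G and 12061 and 11783 in MAT-LyLu, 3.96-fold, with the closest agreement between MAT-LyLu arrays among the 5. Its partner from the same sequence record, U82612cds_g_at, read 3482 and 3072 in G but 12809 and 6874 in MAT-LyLu. The MAT-LyLu arrays were far apart here, the lower still above both G arrays, and the difference ranged from 1.97-fold to 4.17-fold over the pairs of arrays.

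M28259cds_at read 1922 and 1885 in G, under the background level of both arrays, and 5317 and 6777 in MAT-LyLu. Its G level is therefore a bound, and MAT-LyLu was at least 2.92-fold higher, taking each dim value at its array's background level. The fifth Fn1 probe set stood apart from the others. X05831cds_at read 2711 and 2554 in G and 3350 and 3044 in MAT-LyLu, a 1.21-fold difference, with the arrays of the lines separate and all 4 above background. Its log2 difference was 0.28, against 1.52 to 1.98 for the 3 others that were above background in both lines. The 5 probe sets come from 4 sequence records, and no source used here says which fibronectin exons each reads.

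Vcan was read by AF072892_s_at alone, whose suffix says that its probes can match related transcripts. It read 3538 and 3426 in G and 6168 and 5438 in MAT-LyLu. The lines were separate, and the difference was the smallest of the 4 genes by their brightest probe sets, at 1.67-fold (3482 ± 78.9 and 5803 ± 516, SD, n = 2) and a log2 difference of 0.73. Single MAT-LyLu arrays were 1.54-fold to 1.80-fold above single G arrays.

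Cd44 gave a clear signal in 1 of 4 probe sets. M61875_s_at read 4172 and 4085 in G and 12545 and 11219 in MAT-LyLu. The lines were far apart, and the difference was 2.88-fold (4129 ± 61.8 and 11882 ± 938, SD, n = 2), with a log2 difference of 1.52. The other 3 were under background on every array and carry no fold. A30543cds_s_at read 561 and 618 in G and 580 and 585 in MAT-LyLu. AF014365_s_at read 893 and 580 against 821 and 722, and AF014365_i_at 156 and 103 against 141 and 108. In these 3 probe sets the lines overlapped. No source used here says which splice forms of CD44 each probe set can detect, and the higher level belongs to what M61875_s_at reads.

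**Figure D2:**
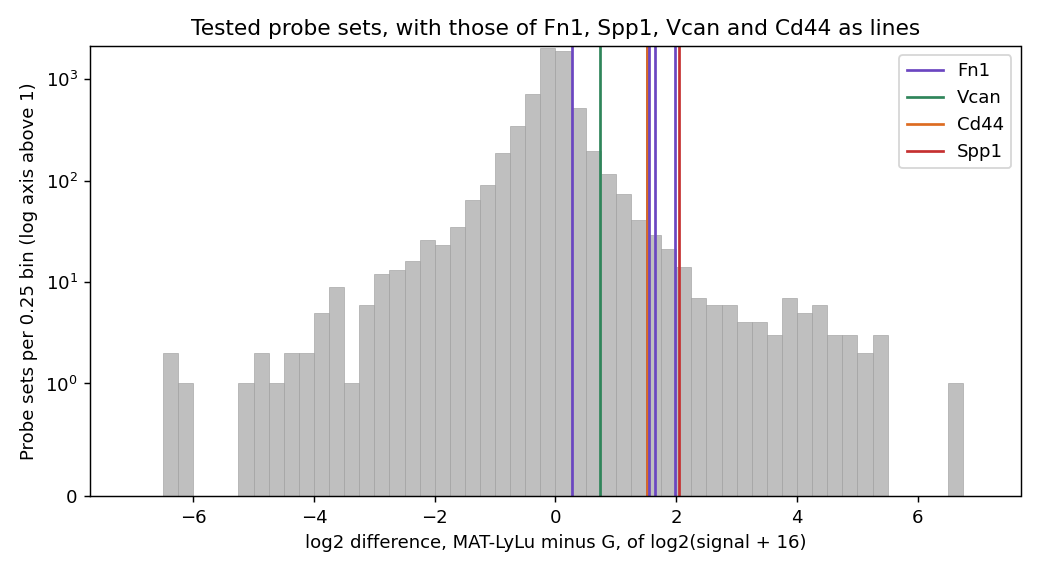
Number of tested probe sets (log axis above 1) by log2 difference, MAT-LyLu minus G, in bins of 0.25, with the 8 tested probe sets of Fn1, Spp1, Vcan and Cd44 as vertical lines. The lines run from 0.28 (Fn1 X05831cds_at) to 2.04 (Spp1), and 5 of the other 6 lie between 1.52 and 1.98 (M28259cds_at, dim in G, among them).

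The genes with the most alike pattern were found by the distance between log2 signals over the 4 arrays, each probe set centred on its own mean. For the brightest Fn1 probe set they were the tetraspanin Cd151 (distance 0.07), the serine synthesis enzyme Psat1 (0.08) and the kinesin Kif13a (0.08). Cd44 had Kif13a (0.05), the laminin-binding integrin subunit Itga7 (0.05) and Cd151 (0.06). Kif13a was under background on both G arrays, so its distances rest on values without exact size. Spp1 had the protease inhibitor Spint2 (0.06), the complement regulator Cd55 (0.10) and the DNA repair gene Ercc1 (0.11); Cd55 too was under background on both G arrays, and its distance has the same limit. Vcan had the nuclear pore gene Nup54 (0.05), the polyamine enzyme Odc1 (0.05) and the inositol phosphatase Impa2 (0.06). With 4 arrays in 2 lines, the distance mostly reflects the size of the difference between the lines.

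The fibrillar collagens, whose fall was part of the choice of members, are given as levels only. Col1a1 read 39741 and 47723 in G and 2604 and 2742 in MAT-LyLu. Col1a2 was at least 14.3-fold lower in MAT-LyLu, where both arrays were under background. Col3a1 read 21787 and 18860 in G and 2419 and 1436 in MAT-LyLu, the last value under background. Collagen V differed less: Col5a1 was 1.73-fold lower in MAT-LyLu (10847 and 7734 against 5336 and 5397) and Col5a2 1.26-fold lower (21288 and 17427 against 16999 and 13638). Col11a1 was nearly level, at 2898 and 2852 in G and 2964 and 3197 in MAT-LyLu, and Col2a1 was under background throughout. The summed signal of the 7 collagens measured, readings under background included, was 127277 and 125354 in G and 32546 and 28888 in MAT-LyLu.

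The partners of the 4 genes were taken from 9 lists of receptors, binding partners, enzymes and regulators, and tested with limma on log2(signal + 16), Benjamini-Hochberg over all 6555 probe sets, each gene by its brightest probe set. Of 129 genes listed, 81 were on the array and 69 passed the filter. In MAT-LyLu 16 rose, 11 fell and 42 did not pass an adjusted p of 0.05. That is 23.2% higher and 15.9% lower, where 13.8% and 19.6% of all 3867 genes tested were. Counted over probe sets instead, 13.6% of the 6555 were higher and 20.1% lower. The median log2 difference was 0.08 over the 69 and -0.02 over all genes. The lists describe the surroundings of the members, and nothing is called particular to them from these counts. The all-gene shares of 13.8% higher and 19.6% lower are the reference for the counts of every list below, and the single lists are small.

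**Figure D3:**
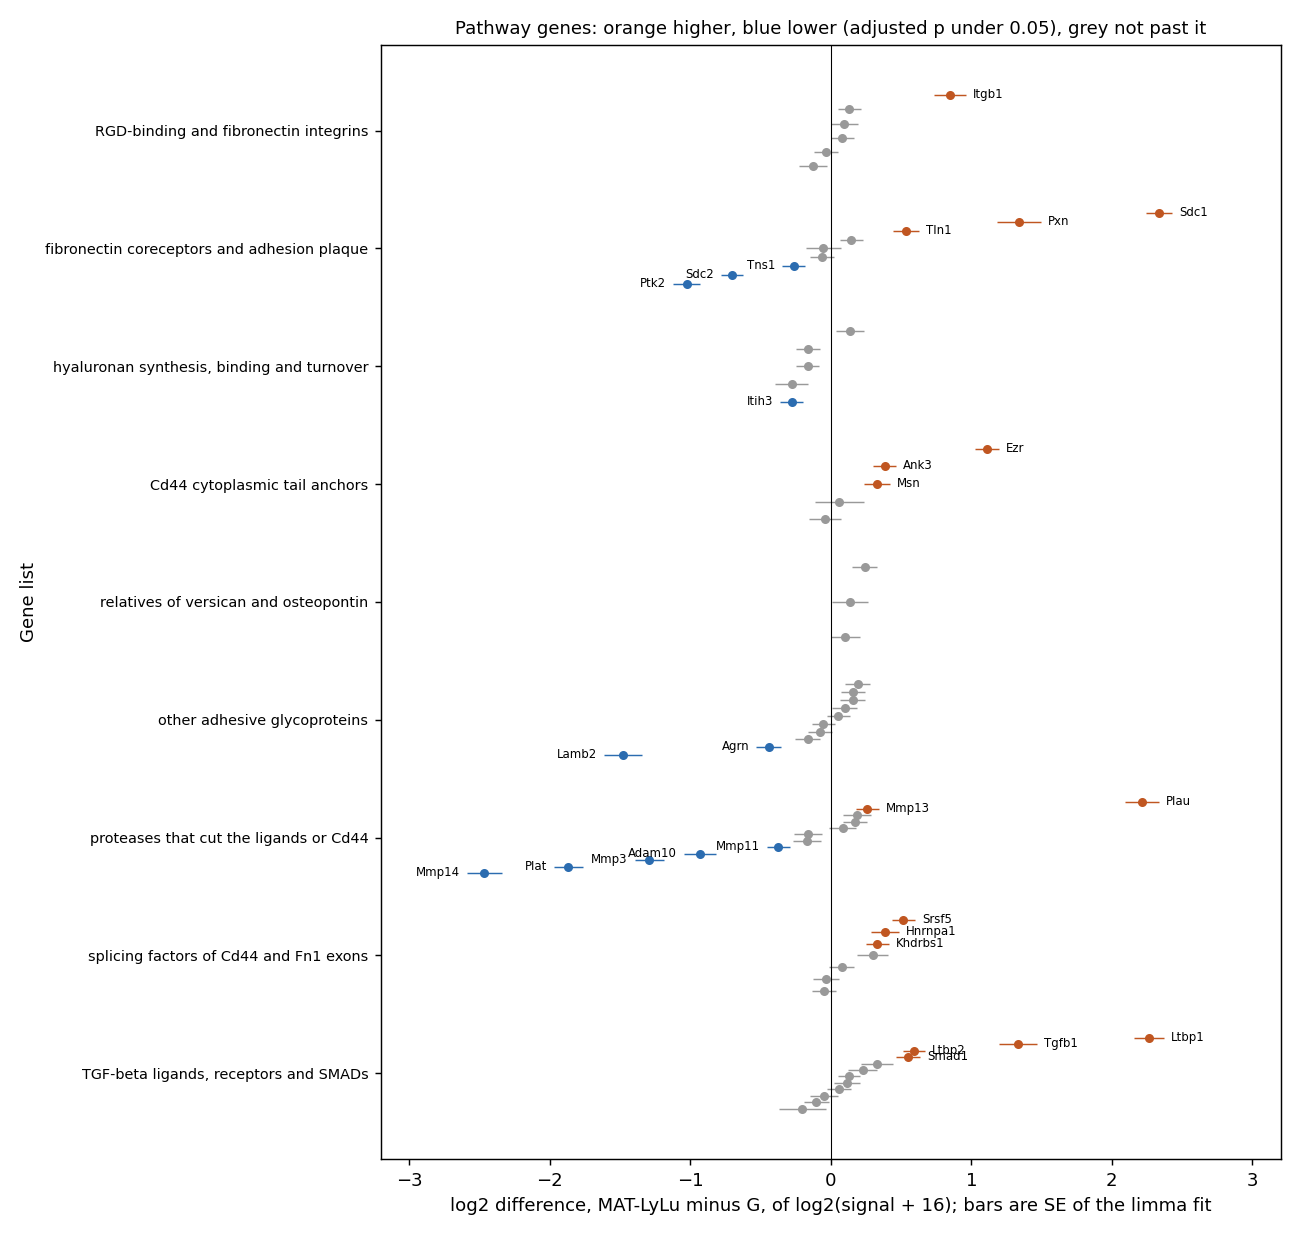
Log2 difference, MAT-LyLu minus G, of each tested gene in the 9 lists, with the SE of the limma fit as bars; orange points rose and blue points fell in MAT-LyLu (limma adjusted p threshold 0.05), and grey points did not pass. Itgb1 alone passed among the 6 integrins of the list, which does not hold Itga7. Ezr, Ank3 and Msn are higher among the Cd44 anchors, and Mmp14 is the lowest of the proteases, at -2.46.

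Among the integrins that bind fibronectin or the arginine-glycine-aspartate sequence, 1 of 6 tested rose and 5 did not pass (median log2 difference 0.09). The all-gene shares were 13.8% higher and 19.6% lower. Itgb1, the beta 1 subunit shared by many fibronectin receptors, read 20730 and 17689 in G and 34610 and 34418 in MAT-LyLu, with the lines well separate. It rose 1.80-fold (log2 difference 0.85, SE 0.11, adjusted p = 0.00073 by limma). Itga2b, the platelet alpha subunit, had a log2 difference of 0.13, Itga8 of 0.08, and Itgb3, a beta partner of Itgav, of -0.13 with signals under background on all 4 arrays. Itgav, the alpha subunit of several osteopontin receptors, was near background in both lines (2108 and 2258 in the means) and had a log2 difference of 0.10 (SE 0.10). The main fibronectin receptor subunit Itga5 was not analysed here.

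Fibronectin coreceptors and adhesion plaque genes went both ways, with 3 rises, 3 falls and 3 not past the threshold of 9 tested (median log2 difference -0.05). Of all genes tested, 13.8% rose and 19.6% fell. The syndecans, heparan sulfate proteoglycans that bind fibronectin beside integrins, divided. Sdc1 read 2399 and 2245 in G and 12560 and 11068 in MAT-LyLu, a 5.09-fold rise (adjusted p = 9.2e-07 by limma), while Sdc2 fell 1.63-fold (adjusted p = 0.00032 by limma). Sdc4, the syndecan of focal adhesions, did not pass on its brightest probe set, at 22914 in G and 21972 in MAT-LyLu, and 1 of its 3 tested probe sets was higher in MAT-LyLu. Pxn, the plaque adaptor paxillin, rose 2.54-fold from 5296 and 4166 to 13714 and 10342, and Ptk2, the focal adhesion kinase that phosphorylates paxillin, fell 2.04-fold from 6215 and 5881 to 3170 and 2771. The adjusted p by limma was 0.00038 for Pxn and 1.0e-04 for Ptk2. The smaller changes were Tln1, the integrin activator talin, 1.45-fold higher, and the actin-binding Tns1, 1.20-fold lower. Tns1 lost its call on leaving out any of the 4 arrays (adjusted p 0.055 to 0.15 by limma) and under quantile or median scaling.

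The genes that tie the Cd44 tail to the cytoskeleton rose in 3 of 5 tested, and 0 fell by limma, with 0 lower at an unadjusted p under 0.05 as well. Their median log2 difference was 0.33. Over all genes tested, 13.8% were higher and 19.6% lower, and 5 genes are too few to set against those shares. Ezr, or ezrin, read 5808 and 5392 in G and 12355 and 11851 in MAT-LyLu, 2.16-fold higher (log2 difference 1.11, SE 0.09, adjusted p = 3.6e-05 by limma). Ank3, an ankyrin, rose 1.30-fold (2 of its 3 tested probe sets) and Msn, or moesin, 1.26-fold. The call of Msn was lost on leaving out G replicate 1 (adjusted p = 0.13 by limma) or MAT-LyLu replicate 1 (0.19). Nf2, the related protein merlin, and Epb41 had log2 differences of 0.06 and -0.04, Epb41 with signals under background on all 4 arrays.

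Hyaluronan genes differed little. Of 5 tested, 1 fell, 4 did not pass and 0 rose by limma, with 0 higher at an unadjusted p under 0.05 as well. The median log2 difference was -0.16. Among all genes tested 13.8% rose and 19.6% fell, and 5 genes are too few to set against those shares. Hyal2, a hyaluronidase, read 12352 and 11828 in G and 10845 and 10752 in MAT-LyLu, and Hmmr, another hyaluronan receptor, read 5916 and 6174 against 5279 and 5517; neither passed (adjusted p = 0.19 and 0.18 by limma). Ambp, the light chain precursor of serum inhibitors that bind hyaluronan, did not pass either (log2 difference -0.28, SE 0.12), with 1 of 4 arrays above background. The fall was Itih3, a hyaluronan-binding serum protein, at 1.21-fold, and it lost its call without any 1 of the arrays (0.052 to 0.15) and under quantile or median scaling. Has2, a hyaluronan synthase, and Lyve1, the lymphatic hyaluronan receptor, did not pass the filter on low signal.

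The closest relatives of versican did not pass. The proteoglycans Acan, Ncan and Bcan had log2 differences of 0.24 (SE 0.09), 0.14 (SE 0.13) and 0.10 (SE 0.11), beside 0.73 for Vcan. Acan passed under quantile scaling (0.028), median scaling (0.033), without G replicate 0 (0.044) and in the fit on gene means (0.047), and Ncan without G replicate 0 (0.038). Of the osteopontin relatives, Ibsp and Dspp did not pass the filter on low signal. Among 10 other adhesive glycoproteins tested, 2 fell, 8 did not pass and 0 rose by limma, with 0 higher at an unadjusted p under 0.05 as well. The 2 falls of 10 are close to the all-gene share of 19.6%. Rises made up 13.8% of all genes, and 10 genes are too few to set against that share. Lamb2, a laminin chain, fell 2.83-fold from 7974 and 5905 to 2432 and 2473 (adjusted p = 9.6e-05 by limma), and Agrn, the heparan sulfate proteoglycan agrin, fell 1.36-fold. Lama5, another laminin chain, had a log2 difference of 0.19 and passed with quantile scaling (0.041), and the basement membrane linker Nid1 had one of 0.16.

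Proteases that can cut these ligands or shed Cd44 showed 2 rises, 5 falls and 5 not past the threshold of 12 tested (median log2 difference -0.16). Shares over all genes tested were 13.8% higher and 19.6% lower. Mmp14, the membrane metalloproteinase that cleaves CD44, read 36124 and 40149 in G and 7632 and 6214 in MAT-LyLu. The lines were far apart, at 5.51-fold lower in MAT-LyLu (log2 difference -2.46, SE 0.12, adjusted p = 2.7e-06 by limma). Adam10, a sheddase of CD44, fell at least 1.73-fold, with MAT-LyLu under background (3748 and 3474 in G). The stromelysin Mmp3, which degrades fibronectin and cleaves osteopontin, fell 2.46-fold. The plasminogen activators went apart: Plau, or urokinase, rose at least 3.33-fold, from 1291 and 1654 (under background) to 6807 and 6884, and Plat, the tissue-type activator, fell at least 1.57-fold, from 3513 and 3048 to 900 and 870 (under background). Mmp13, a collagenase, was 1.20-fold higher and lost its call without any 1 of the arrays (0.071 to 0.21), and Mmp11 was 1.30-fold lower and lost its call without MAT-LyLu replicate 0 (0.051).

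Among the regulators of the members, 7 splicing factors and 12 TGF-beta genes were tested, with 0 falls by limma at an adjusted or an unadjusted p under 0.05. Over all genes tested, 13.8% were higher in MAT-LyLu and 19.6% lower at the adjusted threshold. With so few genes, 0 falls is not read as a result about these lists. Of the splicing factors that act on Cd44 or Fn1 exons, 3 rose (median log2 difference 0.30): Srsf5 by 1.43-fold (1 of its 2 tested probe sets), Hnrnpa1 by 1.31-fold (3 of its 4 probe sets) and Khdrbs1, or Sam68, which promotes inclusion of variable Cd44 exons, by 1.26-fold. Hnrnpa1 lost its call without either MAT-LyLu replicate (0.18 and 0.080), and Khdrbs1 without MAT-LyLu replicate 0 (0.072). Hnrnpm did not pass, at a log2 difference of 0.30 (adjusted p = 0.076 by limma), and passed under some alternatives, among them median scaling (0.035), without G replicate 0 (0.015) and in the fit on gene means (0.043).

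TGF-beta, a known inducer of fibronectin and versican, was represented by 12 tested genes, of which 4 rose and 8 did not pass (median log2 difference 0.18). Tgfb1 read 3065 and 2632 in G and 6309 and 8168 in MAT-LyLu, 2.54-fold higher (log2 difference 1.33, SE 0.14, adjusted p = 0.00016 by limma). Ltbp1, which holds latent TGF-beta in the matrix and binds to fibronectin fibrils, read 5535 and 4705 in G and 25257 and 23915 in MAT-LyLu, 4.80-fold higher (adjusted p = 1.9e-06 by limma). Its relative Ltbp2 rose 1.51-fold on 1 of 2 probe sets, and Smad1, a transducer of BMP signals, 1.47-fold. Tgfb2, Tgfb3 and the receptor Tgfbr1 had log2 differences of 0.06, 0.13 and 0.11 and did not pass. The part of the TGF-beta genes in the levels of Fn1, Spp1, Vcan and Cd44 was not tested.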

How the data were processed

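Expression was measured on 4 single-colour Affymetrix arrays, 2 of G and 2 of MAT-LyLu, grouped by sample titles. The authors deposited 1 linear signal intensity per probe set and array, made with MAS5 per the submitters' processing notes, with version, scaling target and filters not given in the sources used here. Trimmed means (2% per tail) ran from 4928 to 5314, and no further scaling was applied. One symbol was available for 7018 of 8799 probe sets, several for 308 and none for 1473; symbols were updated through gene identifiers, and 6994 matched RefSeq.

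The values were tested as log2(signal + 16), without 59 control probe sets and the 25% with the lowest mean log2 signal, leaving 6555. The lines were compared in limma 3.58.1 (R 4.3.3, lmFit, eBayes with trend), 2-sided, with Benjamini-Hochberg adjustment. The procedure was also run on simulated arrays with independent errors, which says nothing of duplicates that may be technical. Folds are ratios of line means; a fold is "at least" when a line was under background on both arrays, and then compares mean log2 values with dim values raised to background. Probe sets ending in _s can match related transcripts (Vcan, Cd44, Sdc1, Ptk2, Ank3, Srsf5, Ncan, Tgfbr1, Cd55, Cd14, Krt8, Myh11, Cnn1, Col1a1, Col1a2 and Col3a1). That of Acta2 ends in _f and can likewise match transcripts of related genes, so its level and its part of the summed marker signal share this limit. Members and lists were chosen with earlier results of these data known. Named were all member probe sets, up to 4 genes per list with the smallest p, and the 3 genes nearest each member. Krt8, Krt18, Krt5, Cd14, Csf1r, Cd4, Itgam, Lyz2, Tagln, Acta2, Des, Myh11, Cnn1, Vim, Pdgfra, Pdgfrb, Itgav, Sdc4, Tln1, Tns1, Nf2, Has2, Lyve1, Ibsp, Dspp, Adam10, Mmp11, Mmp13, Tgfb2, Tgfb3 and Tgfbr1 were named after their values were seen.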

Additional observations from a re-analysis of the deposited data

How the results depend on the processing

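The alternatives were pseudocounts of 1 and 64, no filter or the lowest 50% left out, quantile and median scaling, a replicate block, the omission of each array and, for genes, the mean of their probe sets; a floor at background was added after seeing the data. Over the 4 brightest member probe sets the direction held in every one of those run on them. The Spp1 log2 difference was 2.14 with quantile scaling against 2.04, and the mean over the 4 Cd44 probe sets, 3 of them under background, was 0.39 against 1.52. Leaving out 1 array, the log2 difference ranged from 1.42 to 1.67 for Fn1, 1.97 to 2.11 for Spp1, 0.64 to 0.82 for Vcan and 1.44 to 1.60 for Cd44. Rises among the list genes ran from 13 to 20 and falls from 9 to 12 over all alternatives (16 and 11 as reported), and 20 of the 27 calls held in all that tested them, with 0 reversals. With the replicate number as a block, 18 rose and 12 fell, and 951 and 1402 of all tested probe sets against 891 and 1318; among the genes named, the block added the calls of Ambp (adjusted p = 0.047) and Hnrnpm (0.041) and removed none; the difference between replicates 0 and 1 correlated at r = 0.16 between the lines across probe sets, and the labels do not say that the numbers pair arrays. With 1 array left in a line, that array is assumed to vary like the other line. Values under background limit the Cd44 and M28259cds_at readings.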
